A study of Homo sapiens with 6 samples.

Results

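The 56 genes described here act in G2 phase and mitosis, and were followed in PLC/PRF/5 cells (PLC/PRF5 in the sample labels), a line from a human hepatocellular carcinoma, in 3 control libraries and 3 libraries after knockdown of MTR4 (MTR4 KD). They were chosen by name, as listed genes of mitosis and G2/M and with no threshold on their values, out of 60675 counted genes, and each symbol matched 1 counted gene. All 56 were among the 18075 genes with enough counts to be tested. The control and MTR4 KD cells were grown alike in DMEM with fetal bovine serum, and total RNA was sequenced. By the study's methods, the inducible knockdown used lentiviral vectors with a short hairpin RNA against MTR4 under doxycycline control and selection with puromycin, and the RNA-seq compared cells before and after induction. Whether the MTR4 KD libraries come from 1 infected population or several, and how long it had been induced before the RNA for sequencing was taken, is not given in the sources used here. No library of doxycycline-treated cells with a scramble hairpin was analysed here, so effects of the inducer or of 1 hairpin cannot be told apart from those of MTR4. MTR4 (symbol MTREX) is an RNA helicase that hands nuclear RNA to the exosome, the complex that degrades RNA from its 3′ end.

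As background, entry into mitosis is driven by the kinase CDK1 bound to cyclin B, which CDC25 phosphatases switch on. Aurora and Polo kinases then build the spindle, the kinetochore proteins attach chromosomes to it, and the spindle checkpoint holds back the anaphase-promoting complex until all are attached. That complex, with its activator CDC20, marks securin (PTTG1) and cyclin B for degradation, which frees separase (ESPL1) to cut cohesin and lets the cell divide. Most of these genes are transcribed in a wave in late S, G2 and M phase. The wave depends on promoter elements called CHR and on CCAAT boxes, which are bound by the MuvB complex with B-MYB and FOXM1 and by NF-Y, respectively. High levels of the same genes are a common mark of proliferating liver tumours.

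Promoters were matched to RefSeq windows on GRCh38.p14 that run from 250 bases before to 50 bases after a gene's start, taking the first window in the table where a gene had several. Of the 56 genes, 48 had a window, and AURKA, BUB3, TTK, TPX2, RACGAP1, UBE2C, BIRC5 and FOXM1 had none. A CHR match was the letters TTTGAA or the letters TTCGAA, and a CCAAT match the letters CCAAT, each on either strand. A CHR match stood in 36 of the 48 windows (75%), against 16.6% of all 27305 windows in the table. A CCAAT match stood in 36 of 48 (75%), against 35.7% of all windows, and both stood together in 60.4% of the members' windows against 6.58% of all. At least 2 CCAAT matches were held by 50% of the members' windows and by 11.3% of all. These are descriptions of letters and not of bound factors. The 250 bases before the start are shown for KIF2C, ECT2, PTTG1 and DLGAP5, the genes that passed the test whichever library was left out, chosen for this after their values were seen. Capitals mark the CHR and CCAAT matches. The strands are plus at chr1:44739587-44739836 for KIF2C, at chr3:172750476-172750725 for ECT2 and at chr5:160421605-160421854 for PTTG1, and minus at chr14:55191586-55191835 for DLGAP5.
KIF2C: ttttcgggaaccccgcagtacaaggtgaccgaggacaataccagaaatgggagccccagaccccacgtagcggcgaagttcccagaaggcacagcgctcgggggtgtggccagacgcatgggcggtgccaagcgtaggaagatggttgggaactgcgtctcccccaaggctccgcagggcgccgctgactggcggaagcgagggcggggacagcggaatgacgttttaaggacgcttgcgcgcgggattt
ECT2: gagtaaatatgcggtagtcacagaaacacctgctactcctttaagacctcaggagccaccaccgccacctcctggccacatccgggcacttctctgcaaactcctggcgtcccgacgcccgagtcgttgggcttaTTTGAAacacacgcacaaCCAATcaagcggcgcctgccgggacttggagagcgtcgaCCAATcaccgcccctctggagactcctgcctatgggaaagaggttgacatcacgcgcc
PTTG1: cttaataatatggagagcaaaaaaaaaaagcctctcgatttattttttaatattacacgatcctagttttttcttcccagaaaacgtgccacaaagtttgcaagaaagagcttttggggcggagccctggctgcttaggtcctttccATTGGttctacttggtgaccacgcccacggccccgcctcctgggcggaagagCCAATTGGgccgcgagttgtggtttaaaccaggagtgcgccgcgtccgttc
DLGAP5: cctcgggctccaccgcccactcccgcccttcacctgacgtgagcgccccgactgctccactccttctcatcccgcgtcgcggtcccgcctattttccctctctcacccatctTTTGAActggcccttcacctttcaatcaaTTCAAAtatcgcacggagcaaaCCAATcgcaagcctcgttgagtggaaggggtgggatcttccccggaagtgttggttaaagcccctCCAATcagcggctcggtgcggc

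The stretch of KIF2C holds neither motif, that of PTTG1 holds CCAAT matches only, a pair of them overlapping, and those of ECT2 and DLGAP5 hold both. The motifs thus do not sort these 4 genes, all of which were lower in the MTR4 KD libraries, into 1 kind of promoter. Among all matched members, a CHR match stood in 15 of the 20 windows of genes that passed the test (75%) and in 21 of the 28 windows of genes that did not (75%). The counts for CCAAT were the same, and at least 2 CCAAT matches stood in 12 of 20 (60%) and 12 of 28 (42.9%), a difference that was not tested.

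Reads counted on genes numbered between 60686786 and 72708682 per library, and the members had between 828 and 32785 reads each in a library. By how many of their reads aligned to more than 1 place, the libraries fell into a pair of sets. Non-unique reads made up 34.7% to 37.5% of MTR4 KD replicate 3 and control replicates 1 and 3, and 14.8% to 18.2% of MTR4 KD replicates 1 and 2 and control replicate 2. The labels name no such sets, and what sets them apart is not given in the sources used here. Over the most variable genes only, the first principal component separated the sets (49.2% of their variance) and the second the conditions (23.9%). Since each set holds both conditions, the change after MTR4 knockdown was estimated within sets, by a term for the set in edgeR's quasi-likelihood test across all 18075 genes with Benjamini-Hochberg adjustment, and a gene was called at an adjusted p under 0.05. Nothing says that the libraries of a group came from separate cultures, so the p-values measure the spread between these libraries, which may be technical. MTR4 itself was at 72.2, 87.4 and 74.4 CPM (counts scaled by library size with TMM factors) in control replicates 1, 2 and 3 and at 44.6, 48.8 and 44.1 CPM in MTR4 KD replicates 1, 2 and 3, a log2 fold change of -0.82 (standard error 0.0542, edgeR adjusted p = 3.62e-07). All 13 hepatocyte and hepatoma markers were detected in these cells, with summed levels (CPM by total counts, without TMM factors) of 22628 to 24446 CPM in the control and 23349 to 24607 CPM in the MTR4 KD libraries. Of 10 fibroblast, endothelial and leucocyte markers measured, 6 stayed under 1 CPM in every library, none was at 0 in all of them, and their sum on the same scale was 4.65 to 9.19 CPM in the control and 3.15 to 6.05 CPM in the MTR4 KD libraries.

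The mitotic genes that passed the test were all lower in the MTR4 KD libraries, by small amounts. Of the 56, 24 were called lower (42.9%), none was called higher and 32 were not called. Over all tested genes, 10.8% were called lower and 9.43% higher, and of the 8797 genes with a mean CPM at or above that of the lowest member, 15.4% were called lower. The fitted change was negative for 55 of the 56 genes, with a median log2 fold change of -0.15, a fall of 10.1%, against a median of 0.01 over all genes tested. It ranged from -0.31 to 0.03, that is from 19.4% lower to 1.89% higher, with standard errors of 0.0398 to 0.0754. No member passed a fold of 1.5 in either direction. None was higher at an unadjusted p under 0.05 in edgeR's test either, and DESeq2 called 22 lower, 20 of them shared with edgeR, against 9.96% of all genes called lower by DESeq2.

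These calls rest on the term for the library set. With condition as the only term, 1 member was called lower, PTTG1 (adjusted p = 0.0481, edgeR's quasi-likelihood test), and none higher, where 2.12% of all genes were called lower. In that fit 15 members had an unadjusted p under 0.05, all of them lower, against 9.84% of all genes lower at that threshold, the change was negative for 49 of the 56, and the median log2 fold change was -0.12. The biological coefficient of variation over all genes was 0.0573 with the set term and 0.175 without it. The calls also rest on MTR4 KD replicate 3. Without it, the comparison rested on control replicate 2 against MTR4 KD replicates 1 and 2, the median was -0.10, and 5 of the 56 members were called lower, a share near the 7.01% of all genes. The change shrank by more than 1.5 times for 11 of the 24 called members. Without control replicate 1, MTR4 KD replicate 1 or MTR4 KD replicate 2, 15, 16 or 17 members were called lower, against 8.38%, 6.88% and 8.43% of all genes. KIF2C, ECT2, PTTG1 and DLGAP5 were called whichever library was left out. In bulk RNA, a smaller share of cells in G2 and M phase and less mitotic mRNA per cell cannot be told apart. The study also measured the cell cycle distribution of control and MTR4-depleted cells by flow cytometry, and those values were not used here.

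**Figure D1:**
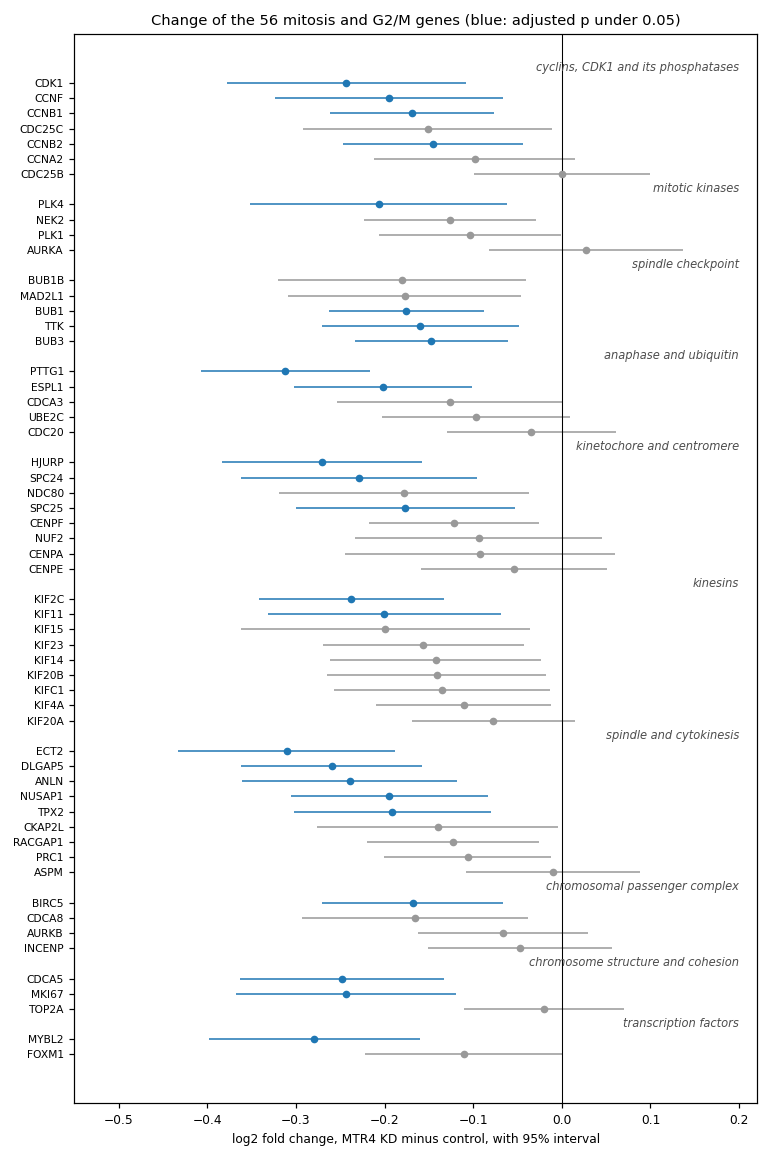
Log2 fold change of each of the 56 genes (MTR4 KD minus control, with the library set as a term) with its 95% interval, grouped by role, blue where the edgeR adjusted p was under 0.05 and grey otherwise. All points but that of AURKA lie at or left of 0, between -0.31 and 0.03, and some of the intervals reach 0.

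Among the cyclins, CDK1 and its phosphatases, 4 of 7 genes were called lower, with a median log2 fold change of -0.15. CDK1, the kinase that starts mitosis, was at 94.5, 74.4 and 82.4 CPM in the control replicates and at 67.9, 59.4 and 73.8 CPM in the MTR4 KD replicates. Every MTR4 KD library lay below every control library, with means of 67.0 ± 7.24 against 83.8 ± 10.1 CPM (SD, 3 libraries each). The gap was narrow between MTR4 KD replicate 3 and control replicate 2, which belong to different sets. CDK1 thus changed by -0.24 on the log2 scale (standard error 0.0624, adjusted p = 0.0148, edgeR). It was not called with condition as the only term (-0.32, edgeR adjusted p = 0.187) or without MTR4 KD replicate 3 (-0.21, edgeR adjusted p = 0.0906). Cyclin B1 (CCNB1), the partner that activates CDK1, was at 150.2, 169 and 145 CPM in the control and at 155, 156 and 126 CPM in the MTR4 KD replicates. Here the groups overlap over all 6 libraries, but within each set the MTR4 KD libraries lay below the controls. Its log2 fold change was -0.17 (standard error 0.0427, edgeR adjusted p = 0.0135), -0.08 (adjusted p = 0.721) with condition as the only term, and -0.10 (adjusted p = 0.233) without MTR4 KD replicate 3. CCNB2, a second B-type cyclin, and CCNF, a cyclin that serves as a ubiquitin ligase subunit, were the other called genes, with log2 fold changes of -0.15 and -0.20, the latter at -0.07 without MTR4 KD replicate 3, when neither was called. CCNA2, the cyclin of S and G2 phase, and the phosphatases CDC25B and CDC25C were not called.

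Of the 4 mitotic kinases, 1 was called. PLK4, the kinase that starts centriole duplication, was at 15.7, 15.3 and 15.7 CPM in the control and at 13.7, 13.1 and 13.5 CPM in the MTR4 KD replicates, with no overlap. Its log2 fold change was -0.21 (standard error 0.0669, edgeR adjusted p = 0.0451), close to the threshold. PLK4 lost its call whichever library was left out (log2 fold change -0.22 to -0.18), and DESeq2 did not call it (adjusted p = 0.0851). PLK1, the main Polo kinase of mitosis, was at 85.0, 76.0 and 80.6 CPM in the control and at 74.8, 74.0 and 73.2 CPM in the MTR4 KD replicates. These groups did not overlap either, but the log2 fold change of -0.10 (standard error 0.0475) was not called (edgeR adjusted p = 0.148). NEK2, which separates centrosomes, was at 58.9, 66.2 and 56.3 CPM and at 60.4, 59.6 and 53.4 CPM, a log2 fold change of -0.13 (edgeR adjusted p = 0.0658). AURKA, the Aurora kinase of the spindle poles, stood apart as the 1 member with a fitted change above 0. It was at 429.6, 453 and 405 CPM in the control and at 499, 486 and 398 CPM in the MTR4 KD replicates. Its MTR4 KD libraries lay above the control of the set with fewer non-unique reads and below both controls of the other set. The log2 fold change was 0.03 (95% interval -0.08 to 0.14, edgeR adjusted p = 0.766).

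The spindle checkpoint genes had similar fitted values, with log2 fold changes between -0.18 and -0.15, and 3 of 5 were called. BUB1, the kinase that recruits other checkpoint proteins to kinetochores, was at 106, 107 and 102 CPM in the control and at 95.4, 94.7 and 91.5 CPM in the MTR4 KD replicates. The groups did not overlap and the spread within each was small, at 105 ± 2.55 against 93.9 ± 2.08 CPM (SD, 3 libraries each). The change of BUB1 on the log2 scale was -0.18 (standard error 0.0404, edgeR adjusted p = 0.0082). BUB3, its binding partner at kinetochores, was at 99.0, 98.9 and 101 CPM in the control and at 88.8, 88.6 and 91.0 CPM in the MTR4 KD replicates, again without overlap, with a log2 fold change of -0.15 (edgeR adjusted p = 0.0193). With each library left out in turn, BUB3 kept its call in 2 of 6 runs. TTK, the checkpoint kinase also called MPS1, had the largest adjusted p of the called genes of this group, 0.0443 by edgeR's test. BUB1B, which encodes BUBR1, and MAD2L1, both inhibitors of CDC20, missed the threshold with edgeR adjusted p of 0.0668 and 0.0571.

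In the group of anaphase and ubiquitin genes, 2 of 5 were called lower, and these are the inhibitor and protease pair that controls sister chromatid separation. PTTG1, securin, had the smallest adjusted p of all 56 genes. It was at 81.6, 73.1 and 82.7 CPM in the control and at 61.4, 58.2 and 65.2 CPM in the MTR4 KD replicates. The highest MTR4 KD library lay below the lowest control library, with means of 61.6 ± 3.48 and 79.1 ± 5.23 CPM (SD, 3 libraries each). On the log2 scale PTTG1 changed by -0.31 (standard error 0.0439, edgeR adjusted p = 0.000279), a fall of 19.4%. ESPL1, separase, was at 98.8, 91.9 and 99.5 CPM and at 83.6, 85.4 and 81.4 CPM, without overlap, and its log2 fold change was -0.20 (standard error 0.0464, edgeR adjusted p = 0.00802), or -0.11 (adjusted p = 0.229) without MTR4 KD replicate 3. The genes that serve ubiquitin transfer itself were not called. UBE2C, the ubiquitin-conjugating enzyme of the anaphase-promoting complex, was at 106, 83.4 and 95.4 CPM in the control and at 78.8, 75.5 and 95.3 CPM in the MTR4 KD replicates, so that its levels differed more between the library sets (log2 difference 0.29) than between the conditions (log2 fold change -0.10, edgeR adjusted p = 0.192). CDC20 had a log2 fold change of -0.03 (edgeR adjusted p = 0.643), and CDCA3, an F-box-like protein, missed the threshold at an adjusted p of 0.153.

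Of 8 kinetochore and centromere genes, 3 were called lower. HJURP, the chaperone that loads the centromeric histone CENPA, was at 50.5, 54.4 and 47.2 CPM in the control and at 42.7, 43.7 and 42.3 CPM in the MTR4 KD replicates, with no overlap. Its log2 fold change was -0.27 (standard error 0.0522, edgeR adjusted p = 0.00272). CENPA itself had a log2 fold change of -0.09 (edgeR adjusted p = 0.403). SPC24 and SPC25 form the end of the NDC80 complex that holds it to the kinetochore, and both were called. SPC24 was at 22.3, 27.0 and 23.3 CPM and at 24.4, 23.8 and 18.5 CPM, and SPC25 was at 25.1, 29.0 and 26.5 CPM and at 25.5, 25.2 and 23.1 CPM. Both genes overlap between groups over all 6 libraries and are separated within each set. Their log2 fold changes were -0.23 (edgeR adjusted p = 0.0191) and -0.18 (edgeR adjusted p = 0.0451), and that of SPC24 was -0.15 (adjusted p = 0.243) without MTR4 KD replicate 3. With each library left out in turn, SPC25 kept its call in 1 of 6 runs, and DESeq2 did not call it (adjusted p = 0.065). NDC80 and NUF2, which form the microtubule-binding end of the complex, had log2 fold changes of -0.18 and -0.09 and were not called, and neither were CENPE, a kinetochore motor, and CENPF.

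All 9 kinesins had negative fitted changes, of -0.24 to -0.08 on the log2 scale, and 2 were called. KIF2C, a kinesin that takes microtubules apart at centromeres, was at 59.7, 60.4 and 56.6 CPM in the control and at 52.9, 50.1 and 49.0 CPM in the MTR4 KD replicates. The groups were separated, at 58.9 ± 1.99 against 50.7 ± 1.97 CPM (SD, 3 libraries each), and the change on the log2 scale was -0.24 (standard error 0.0480, edgeR adjusted p = 0.00375). KIF11, the motor that pushes spindle poles apart, was at 66.5, 66.7 and 61.9 CPM and at 65.3, 57.3 and 52.9 CPM. Only MTR4 KD replicate 1 lay inside the control range, and the log2 fold change was -0.20 (edgeR adjusted p = 0.034), or -0.11 (adjusted p = 0.370) without MTR4 KD replicate 3. KIF4A, a chromosome-bound kinesin with the highest level per kilobase of the group, was at 133, 136 and 131 CPM and at 135, 129.6 and 116 CPM, a log2 fold change of -0.11 (edgeR adjusted p = 0.109). KIF23, the kinesin of the central spindle, was the uncalled member closest to the threshold, with an edgeR adjusted p of 0.0517 and a log2 fold change of -0.16. The largest adjusted p of a called member was 0.0453, that of CCNB2, so the line between called and uncalled genes does not mark a gap in the values.

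The spindle and cytokinesis group had 5 of 9 genes called and a median log2 fold change of -0.19. ECT2, the exchange factor that activates RhoA at the division plane, was at 163, 164 and 142 CPM in the control and at 141, 130.4 and 119.8 CPM in the MTR4 KD replicates. Each MTR4 KD library lay below each control, narrowly so for MTR4 KD replicate 1 against control replicate 3, which belong to different sets. The log2 fold change was -0.31 (standard error 0.0566, edgeR adjusted p = 0.00191), a fall of 19.4%. DLGAP5, a microtubule-associated protein of the spindle also called HURP, was at 64.9, 74.3 and 61.2 CPM and at 64.9, 62.0 and 51.4 CPM, with groups that overlap over all libraries and are separated within sets. Its log2 fold change was -0.26 (standard error 0.0474, edgeR adjusted p = 0.00191). TPX2, which activates AURKA on the spindle, was at 225, 262 and 216 CPM and at 249, 247 and 179 CPM. MTR4 KD replicate 3 lay below all controls and the other two below the control of their own set alone, and the log2 fold change was -0.19 with the set term (edgeR adjusted p = 0.0186) and -0.06 without it (edgeR adjusted p = 0.861). Without MTR4 KD replicate 3 it was -0.07 (edgeR adjusted p = 0.454). ANLN, which scaffolds the contractile ring, and NUSAP1, a microtubule-bundling protein, were also called, with log2 fold changes of -0.24 and -0.19, or -0.15 and -0.11 without MTR4 KD replicate 3, when neither was called. ASPM, a spindle pole protein, had a log2 fold change of -0.01 (95% interval -0.11 to 0.09).

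In the chromosomal passenger complex, which corrects wrong attachments and steers cytokinesis, 1 of 4 subunits was called. BIRC5, survivin, was at 123, 127 and 112 CPM in the control and at 117, 113 and 102 CPM in the MTR4 KD replicates, overlapping across sets but not within them, and its change on the log2 scale was -0.17 (standard error 0.0472, edgeR adjusted p = 0.0234). Without MTR4 KD replicate 3 it was -0.13 and not called (edgeR adjusted p = 0.196). CDCA8, borealin, was at 47.4, 46.5 and 42.1 CPM and at 40.2, 43.4 and 39.5 CPM, a log2 fold change of -0.17 that missed the threshold (edgeR adjusted p = 0.0654). AURKB, the kinase of the complex, was at 90.0, 91.3 and 90.5 CPM and at 92.6, 87.9 and 83.2 CPM. Its log2 fold change of -0.07 (95% interval -0.16 to 0.03) was not called (edgeR adjusted p = 0.334), nor was that of INCENP, the scaffold, at -0.05.

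Among the genes of chromosome structure and cohesion, MKI67 and CDCA5 were called and TOP2A was not. CDCA5, sororin, which protects cohesin until anaphase, was at 87.2, 85.8 and 83.8 CPM in the control and at 79.4, 76.7 and 66.5 CPM in the MTR4 KD replicates, without overlap, and had a log2 fold change of -0.25 (standard error 0.0531, edgeR adjusted p = 0.00531), or -0.13 (adjusted p = 0.175) without MTR4 KD replicate 3. MKI67 encodes Ki-67, the proliferation marker that coats mitotic chromosomes, and was at 210.3, 252 and 211 CPM and at 235, 237 and 160.2 CPM. Replicates 1 and 2 of MTR4 KD lay above 2 of the 3 controls, those of the other set, and replicate 3 lay below all controls. The log2 difference was -0.39 in the set with more and -0.10 in the set with fewer non-unique reads, and the fitted log2 fold change was -0.24 (standard error 0.0574, edgeR adjusted p = 0.00946). It was -0.09 with condition as the only term (edgeR adjusted p = 0.812) and -0.08 without MTR4 KD replicate 3 (edgeR adjusted p = 0.322), and was called in neither. TOP2A, the topoisomerase that untangles sister chromatids, was at 239.6, 315 and 229 CPM and at 320.3, 318 and 225 CPM. These levels followed the library set, with a log2 difference between sets of -0.47 (edgeR adjusted p = 2.81e-06), while the change after knockdown was -0.02 (95% interval -0.11 to 0.07). With condition as the only term the log2 fold change of TOP2A was 0.14 (edgeR adjusted p = 0.718), so its direction depends on the set term.

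The transcription factors of the group are those of the G2/M wave itself. MYBL2, which encodes B-MYB, was at 216, 205 and 220.0 CPM in the control and at 185, 186 and 163 CPM in the MTR4 KD replicates. Every MTR4 KD library lay below every control, at 178 ± 12.9 against 214 ± 7.76 CPM (SD, 3 libraries each), and the change on the log2 scale was -0.28 (standard error 0.0552, edgeR adjusted p = 0.00323). Without MTR4 KD replicate 3 it was -0.13 and not called (edgeR adjusted p = 0.108). FOXM1 was at 97.9, 74.3 and 92.4 CPM and at 73.8, 73.9 and 82.1 CPM. Within the set with fewer non-unique reads the MTR4 KD libraries were nearly level with the control, and in the other set MTR4 KD replicate 3 lay below both controls. The log2 fold change of FOXM1 was -0.11 (95% interval -0.22 to 0.00, edgeR adjusted p = 0.156). The annotation places exons of another gene on the opposite strand over 15.9% of the exonic bases of FOXM1, and the strand setting of the counting is not given in the sources used here.

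**Figure D2:**
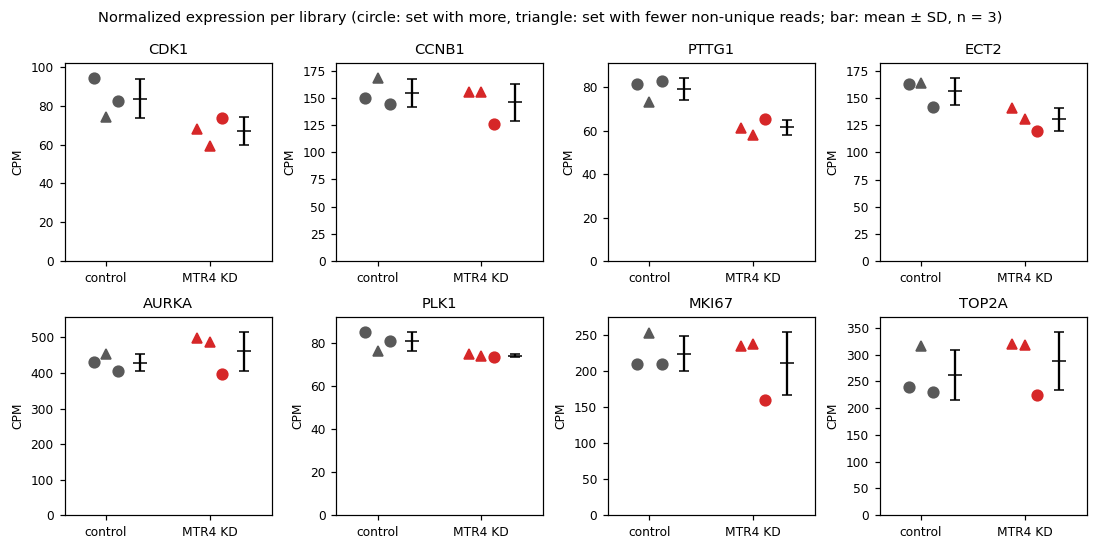
Normalized expression (CPM, axes from 0) of 8 of the genes in each library, grey for control and red for MTR4 KD, circles for the set with more and triangles for the set with fewer non-unique reads, with bars for the mean ± SD (n = 3). PTTG1, CDK1, ECT2 and PLK1 do not overlap between groups, whereas TOP2A and MKI67 split by library set.

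Without a model, every MTR4 KD library lay below every control library for 19 of the 56 genes, against 12.6% of all genes tested, and above for none. Within both library sets at once, the MTR4 KD libraries lay below the controls for 47 members, against 24.6% of all genes, and above for none. The set with more non-unique reads gave 55 members below and none above, with a median log2 difference of -0.18. The other set gave 48 below and 4 above, with a median of -0.11. Shares over all genes are not given here for a single set, so these counts have no background beside them. With 1 library in 1 arm of each set these within-set values have no test of their own, and even 3 libraries against 3 allow an exact permutation p of no less than 0.1 for a single gene. The change did not differ between the sets for any member at an adjusted p under 0.05 in edgeR's interaction test, in which 0.974% of all genes passed. At an unadjusted p under 0.05 there were 8 such members of 56, against 11.1% of all genes, and MKI67 came closest (adjusted p = 0.0687). That test has few residual degrees of freedom, so it does not show that the changes were equal.

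**Figure D3:**
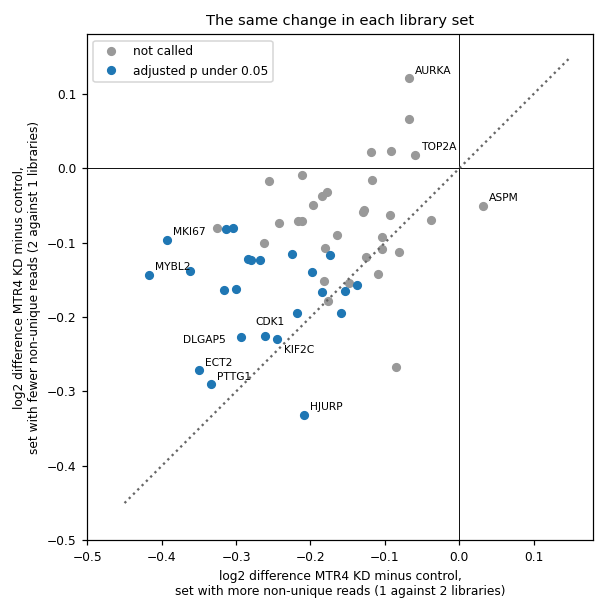
Log2 difference (MTR4 KD minus control) of the 56 genes in the set with more non-unique reads (x axis, 1 against 2 libraries) and in the set with fewer (y axis, 2 against 1), blue where called in the joint fit. The dotted line marks equal differences; 50 genes lie below 0 on both axes, and most lie above the line because the differences were larger in the set with more non-unique reads.

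Members tended to sit high or low together in a library. Relative to each gene's mean over the 6 libraries, the median member was at 0.09, 0.11 and 0.01 on the log2 scale in control replicates 1, 2 and 3 and at 0.02, -0.04 and -0.16 in MTR4 KD replicates 1, 2 and 3. MTR4 KD replicate 3 was thus the lowest library, while MTR4 KD replicate 1 was level with control replicate 3. Against the controls of its own set, the median member was lower by a log2 difference of -0.18 in MTR4 KD replicate 3, of -0.09 in MTR4 KD replicate 1 and of -0.13 in MTR4 KD replicate 2, with 55, 48 and 52 of the 56 genes below. No share over all genes is given here for these counts. Libraries of the same condition and set also differed in a shared direction. Control replicate 1 lay above control replicate 3 for 44 of 56 genes, with a median log2 difference of 0.07, and MTR4 KD replicate 1 above MTR4 KD replicate 2 for 41, with a median of 0.03. The 56 genes therefore do not count as independent measurements of the knockdown. Summed over the members, the level was 5009.5, 5209.3 and 4770.0 CPM in the control replicates and 4981.8, 4867.9 and 4265.2 CPM in the MTR4 KD replicates.

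**Figure D4:**
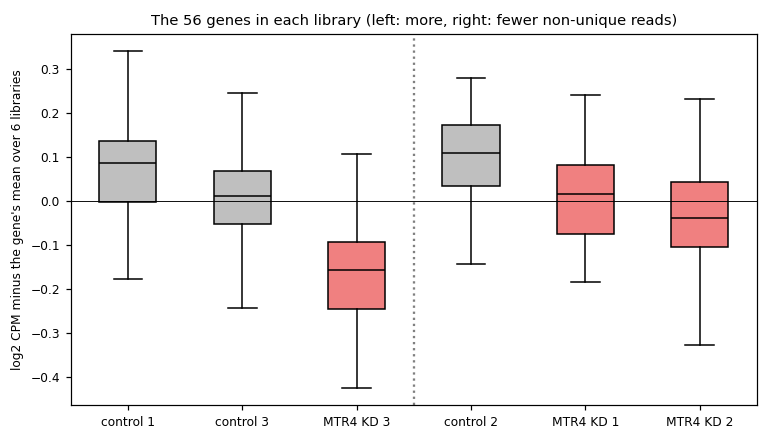
Log2 CPM of the 56 genes relative to each gene's mean over the 6 libraries, one box per library (line at the median, box over the middle 50% of genes, whiskers to the lowest and highest gene), with the set with more non-unique reads left of the dotted line. Within each set the medians of the MTR4 KD libraries lie below those of the controls, and MTR4 KD replicate 3 has the lowest median, -0.16.

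The library set itself separated many members. Between sets, 26 of the 56 genes differed at an adjusted p under 0.05 (edgeR), 20 of them higher in the set with fewer non-unique reads and 6 higher in the other, against 31.5% of all genes called in either direction. For 28 members the difference between sets was larger in size than the change after knockdown. The extremes were CENPF, with a log2 difference (more minus fewer) of -0.53, and UBE2C, with 0.29. Across the 56 genes, the set difference went with exon length, with Pearson's r = -0.52 and Spearman's rho = -0.40, a description over genes that share the same 6 libraries. The 10 members with the shortest exon length, 1286 to 2753 bases, had a median set difference of 0.03, and the 10 with the longest, 6374 to 12845 bases, of -0.37. Over the 17700 tested genes with a known length, rho was -0.16. The change after knockdown showed no such relation among the members, with r = 0.01 for length and r = 0.14 for mean CPM.

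Per kilobase of exon, the members spanned a wide range of levels. AURKA was the highest, at a mean of 152 CPM per kilobase over the 6 libraries, followed by MYBL2 at 70.6, UBE2C at 69.3, TPX2 at 63.7 and CCNB1 at 61.7. PLK4 and KIF15 were the lowest, at 3.24 and 3.29 CPM per kilobase. Reads of some members could be split with other loci. The annotation names pseudogenes after 14 of the 56 genes, among them UBE2C with 5 and NEK2 with 3. Exons of another gene on the same strand cover 10.2% of the exonic bases of BUB1B, 7.08% of those of CENPA and 5.40% of those of NUSAP1. Counting either strand, 21 members share exonic bases with another gene and 7 share over 10%, with the largest share, 34.3%, in PRC1, whose partner is the antisense gene PRC1-AS1. Levels of these genes are less certain, and their changes are given as counted.

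The interval of each change shows how far the uncalled genes can be read. Of the 32 members that were not called, 30 had a lower 95% bound below -0.1 on the log2 scale, and 10 had an adjusted p under 0.1 in edgeR's test. Of the 24 called members, 13 had an adjusted p over 0.01.

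Of other genes of the mitotic machinery, from a list of 38 that does not overlap the 56, 15 were called lower (39.5%) and none higher. The share called lower was 10.8% over all tested genes and 15.4% over those at or above the level of the lowest member. The median log2 fold change of the list was -0.13. With condition as the only term, 1 of the 38 was called lower, against 2.12% of all tested genes. The smallest adjusted p among the 38 belonged to MASTL, the Greatwall kinase that keeps CDK1 substrates phosphorylated. It was at 38.1, 43.1 and 40.6 CPM in the control and at 31.9, 29.6 and 28.5 CPM in the MTR4 KD replicates, without overlap, and its change on the log2 scale was -0.48 (standard error 0.0561, edgeR adjusted p = 6.69e-05), larger in size than that of any of the 56. CDCA2 and the kinesin KIF22 followed, with log2 fold changes of -0.30 and -0.24. Of 16 condensin and cohesin subunits and partners, 5 were called lower (31.25%), led by the condensin subunit NCAPG at -0.27, and none higher. None of these 16 was called with condition as the only term. Fewer were called in the remaining lists of the machinery. Among 21 inner kinetochore, KNL1 and MIS12 complex genes, 3 were called lower, among them CENPH (-0.39) and CENPU (-0.28). That share, 14.3%, is near the 15.4% of genes at or above the level of the lowest member. The median log2 fold change of these 21 genes was -0.02. Among 16 subunits and partners of the anaphase-promoting complex none was called in either direction, with a median of 0.03. These values were set side by side and the difference between lists was not tested.

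Upstream of mitosis, the factors that shape the G2/M wave gave mixed values. Of 12 DREAM and MuvB subunits and partners, which repress or activate the wave according to the proteins bound, 2 were called lower, MYBL1 (-0.28) and TFDP1 (-0.22), and none higher, with a median log2 fold change of -0.01, a share of 16.7% that is near the 15.4% of genes at or above the level of the lowest member. Of 12 brakes on CDK1, 5 were called lower (41.7%) and none higher, against 10.8% of all tested genes called lower. With condition as the only term, 2 of the 12 were called lower, against 2.12% of all tested genes. The CDK inhibitor CDKN1A (p21) was at 17.6, 17.4 and 18.8 CPM in the control and at 13.4, 12.2 and 13.4 CPM in the MTR4 KD replicates, a log2 fold change of -0.44 (edgeR adjusted p = 0.000682). SFN, which holds CDK1 in the cytoplasm, and the checkpoint kinase CHEK1 were lower by log2 fold changes of -0.36 and -0.29. With condition as the only term, neither SFN nor CHEK1 was called (edgeR adjusted p = 0.157 and 0.130). SFN overlapped between groups, with 54.5 CPM in control replicate 2 and 58.0 CPM in MTR4 KD replicate 3, and differed by 0.45 on the log2 scale between library sets. The called brakes thus had the same sign as CDK1 itself.

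The list of DNA replication and the G1/S transition, the earlier wave of the cell cycle, held 43 genes. Of these, 26 were called lower (60.5%, against 10.8% of all tested genes) and none higher. The median log2 fold change was -0.23, and 42 of the 43 changes were negative. MCM6, a subunit of the replicative helicase, was at 173, 181 and 172 CPM in the control and at 140.1, 142 and 133 CPM in the MTR4 KD replicates. The groups were well apart, and the log2 fold change was -0.37 (standard error 0.0389, edgeR adjusted p = 2.59e-05). UHRF1, which keeps DNA methylation through replication, and MCM10, a replication initiation factor, were lower by -0.38 and -0.36 on the log2 scale. With condition as the only term, 6 of the 43 genes were called lower, against 1 of the 56 mitotic genes and 2.12% of all tested genes. Whether the replication genes changed more than the mitotic genes was not tested.

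**Figure D5:**
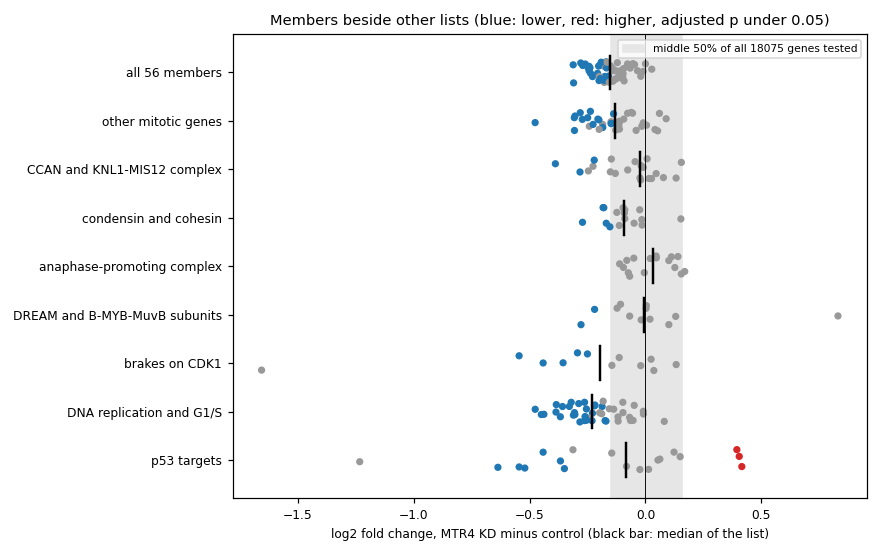
Log2 fold change (MTR4 KD minus control, x axis) of each gene of the 56 and of 8 other lists (rows), blue where called lower, red where called higher and grey where not called, with a black bar at the median of each list and a grey band over the middle 50% of the 18075 genes tested. The medians lie at -0.15 for the 56 genes, -0.13 for the other mitotic genes, -0.23 for the replication genes and 0.03 for the anaphase-promoting complex.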

How the data were processed

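The authors deposited raw counts of reads per Ensembl gene for each of 6 libraries, with the reads left without a gene, which made up 37.8% to 49.3% of all entries and were left out here. The submitters' processing notes name HISAT2 2.1.0, HTSeq, DESeq2 and GRCh38, and the study's methods name Ensembl release 84. Exon lengths and overlaps came from GENCODE 44 in its GRCh37 version, where 56959 of the 60675 genes were found. Gene symbols came from a separate list of names by Ensembl identifier, which gave a symbol for 42395 of the counted genes. Groups and replicate numbers came from the sample labels.

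Counts were tested in R 4.3.3 with edgeR 4.0.16 (filterByExpr with a minimum of 10 counts, TMM, quasi-likelihood test with library set and condition, Benjamini-Hochberg over all genes) and DESeq2 1.42.0 as an alternative. Libraries with over 30% of non-unique alignments formed 1 set. Tables and plots were made in Python 3.11.15 (pandas 2.3.3, matplotlib 3.10.9), and the fit was checked on simulated counts. For the RNA-seq, the study's text names a fold-change threshold for differential expression and no test for these genes. By immunohistochemistry, it also compared Ki-67-positive cells between tumours of control and MTR4 KD cells with an ANOVA. That is a measure of protein in tumours and was not used here. Standard errors are the absolute log2 fold change divided by the root of the F statistic, and intervals are at 95%. Within-set log2 differences are ratios of mean CPM.

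The 56 genes, the other lists and the set term were chosen with earlier results of these data known. Values in every library are given for MTR4, for the 2 genes of each role group with the smallest adjusted p, for the gene with the highest level per kilobase in the group, and for CDK1, CCNB1, AURKA, PLK1, MKI67, TOP2A and FOXM1. Of other lists, at most 3 called genes per direction are named. The values of 1 gene that this rule covers are left out here. Alternatives were condition only, the replicate number as a block, other scaling, filters, thresholds and tool, and each library left out in turn.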

Additional observations from a re-analysis of the deposited data

How the results depend on the processing

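No alternative run called a member higher, though some runs called 1 member or none at all. The median fitted change was negative in every run, but with condition as the only term 7 of the 56 changes were positive. The number called lower depended on the settings. It was 24 in the fit with the library set, 1 with condition as the only term (2.12% of all genes), 1 with the replicate number as a block in place of the set (2.85%), 11 at an adjusted p under 0.01 (5.97%) and 0 with a fold over 1.5 (2.55%). It ranged from 5 to 25 with each library left out in turn, where 6.88% to 8.43% of all genes were called, and was lowest without MTR4 KD replicate 3. Size factors gave 23 (10.4% of all genes), total counts 19 (9.77%), no filter 28 (7.04%), a filter of 1 CPM 28 (14.2%) and DESeq2 22 (9.96%). The median log2 fold change ranged from -0.19 to -0.10 over the left-out libraries, nearest to 0 without MTR4 KD replicate 3 and farthest without control replicate 2. The fit without control replicate 2, which also gave the highest count of calls, rested on MTR4 KD replicate 3 alone against control replicates 1 and 3. Of the 28 members whose values are printed for each library, 18 lost their call and 1 turned direction with condition only, and the same counts held with the replicate block. That 1 was TOP2A, at 0.14 in both. Over the left-out libraries AURKA ranged from -0.0689 to 0.133, FOXM1 from -0.213 to 0.00265 and TOP2A from -0.0604 to 0.0293, each crossing 0. Among called genes the widest ranges were those of MKI67 (-0.394 to -0.0848), MYBL2 (-0.418 to -0.132), CCNF (-0.315 to -0.0699), TPX2 (-0.306 to -0.0685) and CDCA5 (-0.363 to -0.127), all lowest in size without MTR4 KD replicate 3. The cause of these changes was not tested. The replicate numbers do not pair the libraries. Same-numbered libraries had correlations of -0.24, 0.33 and 0.35 in their deviations from the group means, and control replicates 1 and 2 and MTR4 KD replicate 1 correlated best with another number. Where 1 library is left out, a lone library is assumed to vary like the others. The members had at least 828 reads in each library, and the precision of their changes is limited by the number of libraries.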

Other observations

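Among 19 tested genes of a list of p53 targets, 6 were called lower (31.6%) and 3 higher in the fit with the library set. Over all tested genes, 10.8% were called lower and 9.43% higher. The median log2 fold change of the list was -0.08. GDF15, a stress-induced cytokine, was at 397, 292 and 383 CPM in the control and at 204, 193 and 237 CPM in the MTR4 KD replicates, with no overlap, and its log2 fold change was -0.64 (standard error 0.0485, edgeR adjusted p = 1.34e-06). TNFRSF10B, a death receptor, and DDB2, a DNA damage sensor, were lower by -0.35 and -0.37 on the log2 scale. ZMAT3, an RNA-binding protein, TP53I3, an oxidoreductase, and SESN1, a sestrin, were higher by 0.42, 0.40 and 0.39. CDKN1A and GADD45A stand both in this list and in that of the brakes on CDK1. The list thus held called genes of both directions, unlike the 56 mitotic genes, where none was called higher.

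Of 13 hepatocyte and hepatoma markers, 6 were called higher and 2 lower, against 9.43% and 10.8% of all tested genes. The plasma protein TTR (transthyretin) was at 16.0, 16.1 and 14.7 CPM in the control and at 24.9, 29.2 and 31.8 CPM in the MTR4 KD replicates, a log2 fold change of 0.90 (edgeR adjusted p = 7.22e-06). APOA1 and APOH, an apolipoprotein and a phospholipid-binding plasma protein, were higher by 0.54 and 0.49 on the log2 scale. The keratins KRT8 and KRT18 were lower by -0.22 and -0.26. These markers therefore moved with the condition beside the mitotic genes, and their part in the result was not tested.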
